A study of Mus musculus with 28 samples.

Results

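Ribosomal protein pseudogene copies were examined in sorted mouse rods of 2 genotypes. The members are the genes of the deposited table whose name begins with Rpl or Rps and ends in -ps with an optional number, such as Rpsa-ps10. They were chosen by their measured values, since a copy was kept when its mean reached 1 CPM (a gene's counts scaled to its library's total) over the 15 WT libraries or over the 13 rd1 libraries. Of 45594 genes, 272 had such a name and 24 met the rule. The threshold was met in both genotypes by 16 copies, in rd1 alone by 6 (Rpsa-ps10, Rpl15-ps2, Rpl35a-ps2, Rpl35a-ps3, Rpl35a-ps4 and Rpl35a-ps6) and in WT alone by 2 (Rpl21-ps15 and Rpl38-ps2). The 8 copies past it in a single genotype had to differ between the genotypes, so their levels are given as a description with no test and no fold. Of the 248 named copies that missed the rule, 51 had 0 counts in all 28 libraries.

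Ribosomal proteins form the small (Rps, Rpsa) and large (Rpl) subunits of the ribosome, and nearly every one is made from a single intron-containing gene that is transcribed strongly in all cells. A processed pseudogene arises when a spliced mRNA is reverse transcribed and inserted elsewhere in the genome, and abundant mRNAs such as those of ribosomal proteins have left many such copies in mammals. A copy lacks introns and resembles the mRNA of its parent gene, so a short read can match both. A program such as kallisto shares reads that match several transcripts among them by an estimate, and the level of a young copy then depends on the few bases at which it differs from its parent. Each copy is therefore described here beside the gene it is named after, and every level of a copy is uncertain to the extent that its reads are shared.

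The rods carried a green fluorescent protein transgene under the Nrl promoter (TgNrlp-GFP), which marks rods, and were dissociated with papain and sorted by flow cytometry. The WT group had the transgene alone, and the rd1 group had it with the rd1 allele of Pde6b on both chromosomes. The protein of Pde6b is one of the catalytic subunits of rod phosphodiesterase, and rods that lack it degenerate. Ages were postnatal days 2, 4, 6, 8 and 10 (P2 to P10), with 2, 2, 3, 4 and 2 rd1 libraries and 2, 3, 4, 2 and 4 WT libraries in that order. The labels do not say whether libraries came from separate animals, so p-values measure the spread between these samples only. Nor do they give the strain of either line, and bases at which the lines differ at a copy or its parent were not examined here. Where a copy is told from its parent by a few bases, its level was therefore measured against the annotated sequence only.

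Pde6b lay between 488 and 4138 CPM in WT and between 101 and 1375 CPM in rd1, and no rd1 library reached a WT library of its age. The rod factors Nrl and Nr2e3 were abundant in every library, with at least 1575 and 1967 CPM. The 9 rd1 libraries outside P8 were deeper, at 16.0 to 21.4 M counts, than the other 19 libraries, at 11.1 to 15.0 M counts (M, mega). The P8 libraries were the only ones of like depth in both genotypes (rd1 11.1 to 13.8 M, WT 12.7 and 13.2 M). Depth thus cannot be told apart from genotype at the remaining ages. P8 is therefore given separately for the counts of copies, parents, ratios and families. P6 rd1 replicates 1 and 3 agreed far more closely than any others of a group (chi-square over its degrees of freedom 1.71, where 28 further pairs of replicates gave 6.54 to 156), and their mean entered every test as 1 sample. Their levels are shown apart. The highest values were those of P6 WT replicate 1 against replicates 2, 3 and 4 (135, 137 and 156), and the next highest pair gave 72.4. P6 WT replicate 1 was kept in the main fit.

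The 24 copies lay on 13 chromosomes and belonged to 20 parent genes. Per the deposited table, 19 were annotated as processed pseudogenes, 3 as protein coding (Rpl10-ps3, Rpl27-ps3 and Rps12-ps3), Rps2-ps10 as a transcribed processed pseudogene and Rpl14-ps1 as a pseudogene. In the GENCODE M21 annotation of GRCm38, 13 lay in an intron of another gene, 12 of them on the opposite strand. The exception in strand was Rpl36a-ps2, in an intron of Ddah1. Rps23-ps1 lay across an exon of Gm5148 on the opposite strand, and 10 copies lay between genes. Among the hosts were Pde6a, the alpha subunit of the same phosphodiesterase, whose intron holds Rps2-ps10, and Lca5, a ciliary gene of photoreceptors, whose intron holds Rps27a-ps2.

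The transcripts of the copies were compared with those of their parents in words of 31 bases, the unit in which a read is usually matched by the authors' program. Every word of 11 copies occurred in a transcript of the parent, and 13 copies held words that the parent lacked. For 21 of the 24 the compared transcript had the length given in the deposited table. The deposited lengths of the other 3 were 742 bases for Rpl10-ps3, 710 for Rpl14-ps1 and 475 for Rpl27-ps3, and the compared lengths were 768, 653 and 411, so their word counts may not hold for the quantified transcripts. Of the 13 copies with words that the parent lacked, 7 held at least 1 word that occurred in no other gene of the annotation. Identity over the aligned bases, gaps counted, ran from 95.4% (Rps19-ps3, 14 mismatches) to 100%. All 6 copies past the threshold in rd1 alone held words absent from the parent, 31 to 172 of them. The Rpl35a copies among these are identical to each other and so stand for 1 sequence. Of the 16 copies past it in both genotypes, 10 had every word in the parent. Stretches of 5 copies are printed 5′ to 3′ with the matching stretch of the parent, because these copies show the contrasts below. Capitals mark the bases at which copy and parent differ. The transcripts are those of GENCODE M21 on GRCm38. Bases of a copy are numbered along its transcript, and bases of a parent along its coding sequence.

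Rpsa-ps10 (ENSMUSG00000047676, chr3:150072658-150073542, minus strand, between genes) is a copy of Rpsa, a small-subunit protein also known as the laminin receptor. Over 885 bases it had 6 mismatches, and 155 of its 855 words were absent from Rpsa, 91 of them absent from every other gene. Bases 155 to 274 of the copy and of the coding sequence of Rpsa follow.
Rpsa-ps10: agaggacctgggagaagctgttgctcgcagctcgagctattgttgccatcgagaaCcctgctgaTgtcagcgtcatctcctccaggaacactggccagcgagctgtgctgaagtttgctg
Rpsa: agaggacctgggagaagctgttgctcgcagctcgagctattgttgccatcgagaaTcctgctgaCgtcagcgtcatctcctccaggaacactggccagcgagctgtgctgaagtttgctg

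Rpl35a-ps2 (chr1:181241988-181242320), Rpl35a-ps3 (chr17:29136972-29137304), Rpl35a-ps4 (chr2:108874926-108875258) and Rpl35a-ps6 (chr5:123255481-123255813), all on the minus strand, are copies of Rpl35a, a large-subunit protein. Their 333 bases were identical to each other and to the predicted gene Gm10243, so reads cannot separate them, and they carried the same level in every library. A single mismatch to Rpl35a made 31 of their 303 words absent from it. Bases 97 to 216 of Rpl35a-ps4 and of the coding sequence of Rpl35a follow.
Rpl35a-ps4: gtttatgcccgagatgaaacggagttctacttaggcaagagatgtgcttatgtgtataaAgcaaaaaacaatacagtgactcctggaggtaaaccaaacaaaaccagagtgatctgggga
Rpl35a: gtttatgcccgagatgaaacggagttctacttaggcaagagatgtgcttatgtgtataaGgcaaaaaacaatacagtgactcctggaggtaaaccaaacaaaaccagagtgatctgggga

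Rpl14-ps1 (ENSMUSG00000046721, chr7:45324941-45325651, plus strand, in an intron of Trpm4 on the opposite strand) is a copy of Rpl14, a large-subunit protein. Over the 653 bases compared, against 710 in the deposited table, it had 4 mismatches and 3 gap bases, and its 91 words absent from Rpl14 occurred in no other gene. Bases 318 to 437 of the copy and of the coding sequence of Rpl14 follow.
Rpl14-ps1: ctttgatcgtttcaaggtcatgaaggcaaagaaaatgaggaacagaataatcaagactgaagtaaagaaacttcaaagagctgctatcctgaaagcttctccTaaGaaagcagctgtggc
Rpl14: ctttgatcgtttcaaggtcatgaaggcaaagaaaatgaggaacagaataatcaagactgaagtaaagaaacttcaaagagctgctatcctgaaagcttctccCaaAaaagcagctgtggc

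Rpl15-ps2 (ENSMUSG00000098915, chr9:72060937-72061549, plus strand, in an intron of Tcf12 on the opposite strand) is a copy of Rpl15, a large-subunit protein. It had 8 mismatches, 172 of its 583 words were absent from Rpl15, and 65 occurred in no other gene. Bases 248 to 367 of the copy match bases 250 to 369 of the coding sequence of Rpl15.
Rpl15-ps2: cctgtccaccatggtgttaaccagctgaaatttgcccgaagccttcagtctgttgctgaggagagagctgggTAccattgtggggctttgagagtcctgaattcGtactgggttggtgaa
Rpl15: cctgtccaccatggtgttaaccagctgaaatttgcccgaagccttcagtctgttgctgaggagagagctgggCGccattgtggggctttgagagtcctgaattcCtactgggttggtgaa

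Rpl10a-ps1 (ENSMUSG00000084416, chr1:64993951-64994604, minus strand, between genes) stands for the 11 copies without a word of their own against the parent, Rpl10a, a large-subunit protein. Its 654 bases matched Rpl10a with no mismatch. Bases 282 to 371 of the copy and of the coding sequence of Rpl10a, printed with no capitals, are the same letters.
Rpl10a-ps1: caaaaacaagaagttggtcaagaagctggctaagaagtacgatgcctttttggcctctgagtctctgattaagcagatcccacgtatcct
Rpl10a: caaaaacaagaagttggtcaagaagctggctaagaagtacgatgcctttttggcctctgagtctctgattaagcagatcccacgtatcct

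Together the 24 copies took 0.0756% to 0.212% of all counts in WT libraries (median 0.123%) and 0.142% to 0.245% in rd1 libraries (median 0.192%). These sums include the copies kept for their level in a single genotype, so the difference between the genotypes is partly set by the level rule. The 3 most abundant were Rpl10a-ps1 (204 CPM), Rpl10-ps3 (175 CPM) and Rps23-ps1 (126 CPM) by their mean in WT, and Rpsa-ps10 (359 CPM), Rpl10-ps3 (194 CPM) and Rpl10a-ps1 (172 CPM) by their mean in rd1. Rpl27-ps3 (117 CPM in WT, 144 CPM in rd1) and Rps12-ps3 (108 and 119 CPM) also lay among the 6 with the highest mean over all libraries. Rpl10, the parent of Rpl10-ps3, encodes a protein that joins the large subunit late in its assembly. Just inside the threshold were Rpl38-ps2 (1.26 CPM in WT), Rpl21-ps15 (1.78 CPM in WT) and Rps19-ps3 (2.01 CPM in rd1). Just outside it were Rpl10-ps6 (0.952 CPM), Rps13-ps1 (0.714 CPM) and Rps13-ps4 (0.649 CPM), each by its higher genotype mean.

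Several copies carried more signal per length than their parent. Per kilobase of transcript, the mean level of Rpl27-ps3 was 11.4 times that of Rpl27 in WT and 8.76 times in rd1. That ratio was 2.02 and 1.51 for Rpl28-ps1 and 1.89 and 2.26 for Rps23-ps1. Rpl10-ps3 stood at 231 CPM per kilobase against 69.6 for Rpl10 in WT, and at 252 against 66.2 in rd1. Rps12-ps3 stood at 220 CPM per kilobase against 120 for Rps12 in WT, and at 234 against 167 in rd1. Of these 5 copies, Rpl28-ps1 and Rps23-ps1 had no word that their parent lacked, nor had Rpl27-ps3 over the 411 bases compared of the 475 in the deposited table. The remaining bases of Rpl27-ps3 were not compared. At the low end in WT were Rpl35a-ps2 and its identical copies (0.000658), Rpl15-ps2 (0.00155) and Rpsa-ps10 (0.0018), which in rd1 stood at 0.370, 0.196 and 4.23 times the parent. Rps12 was listed at 0 in P2 WT replicate 1, where Rps12-ps3 stood at 137 CPM.

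Rpsa-ps10 was near 0 in WT and by its mean the most abundant copy in rd1. In WT it stood at 0 CPM in the lowest, 0.292 CPM in the median and 1.01 CPM in the highest of 15 libraries, or at most 13.4 estimated counts. In rd1 the lowest, median and highest of 13 libraries were 270, 324 and 542 CPM. At P8, where depth was alike, the rd1 libraries had 329, 270, 284 and 290 CPM and the WT libraries 0 and 0.290 CPM. The genotypes did not overlap at any age.

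Its parent Rpsa went the other way, from 178, 360 and 668 CPM (lowest, median, highest) in WT to 111, 155 and 329 CPM in rd1. By edgeR's quasi-likelihood test with Benjamini-Hochberg adjustment, which is used for all fold changes of genes below, Rpsa changed by -1.13 ± 0.10 (SE) on the log2 scale, rd1 over WT averaged over the ages (adjusted p = 2.77e-08). Of the counts of Rpsa and Rpsa-ps10 together, the copy took at most 0.245% in WT and 51.1% to 75.8% in rd1. Rpsa entered through a copy chosen by its rd1 level, and 81.9% of that copy's words occur in Rpsa. The change of Rpsa and its p-value may therefore not be independent of the level rule.

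The 4 Rpl35a copies showed the same contrast at a lower level. Each stood between 0.0216 and 0.143 CPM in WT, at most 1.71 estimated counts in any of the 15 libraries, and between 9.85 and 17.0 CPM in rd1 with a median of 12.8 CPM. The P8 rd1 libraries had 12.8, 11.8, 10.7 and 12.5 CPM and the P8 WT libraries 0.0444 and 0.0229 CPM. Rpl35a itself ran from 95.2 to 251 CPM in WT (median 156) and from 39.3 to 75.8 CPM in rd1 (median 59.9). No library of one genotype reached the other, for the copies or for Rpl35a, whose log2 fold change was -1.45 ± 0.07 (adjusted p = 1.33e-12). The limit given for Rpsa holds for Rpl35a too, since 89.8% of each copy's words occur in it.

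Rpl14-ps1 met the threshold in both genotypes, in WT through a few libraries. It was at 0 in 5 of the 15 WT libraries and at 1 CPM or more in 6, with a lowest, median and highest value of 0, 0.0292 and 13.1 CPM. In rd1 all 13 libraries lay between 38.7 and 98.7 CPM with a median of 63.3 CPM, above every WT library. The P8 rd1 libraries had 95.6, 83.7, 75.4 and 98.7 CPM, against 4.26 and 0 CPM in WT. The log2 fold change averaged over the ages was 5.92 ± 0.76 (adjusted p = 9.38e-06), the largest among the 16 copies past the rule in both genotypes, and at P8 alone it was 5.26 ± 1.53 (adjusted p = 0.0601). Without P2 WT replicate 1, which held the 13.1 CPM, the average was 7.84, and over all 27 fits that each left out 1 library it ran from 5.72 to 7.84. The parent Rpl14 had a WT mean of 201 ± 49.7 CPM (SD over 15 libraries), an rd1 mean of 174 ± 38.7 CPM (SD over 13) and did not pass (-0.15 ± 0.07, adjusted p = 0.127). Trpm4, the gene around the copy, lay between 0.909 and 7.49 CPM in all libraries.

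**Figure D1:**
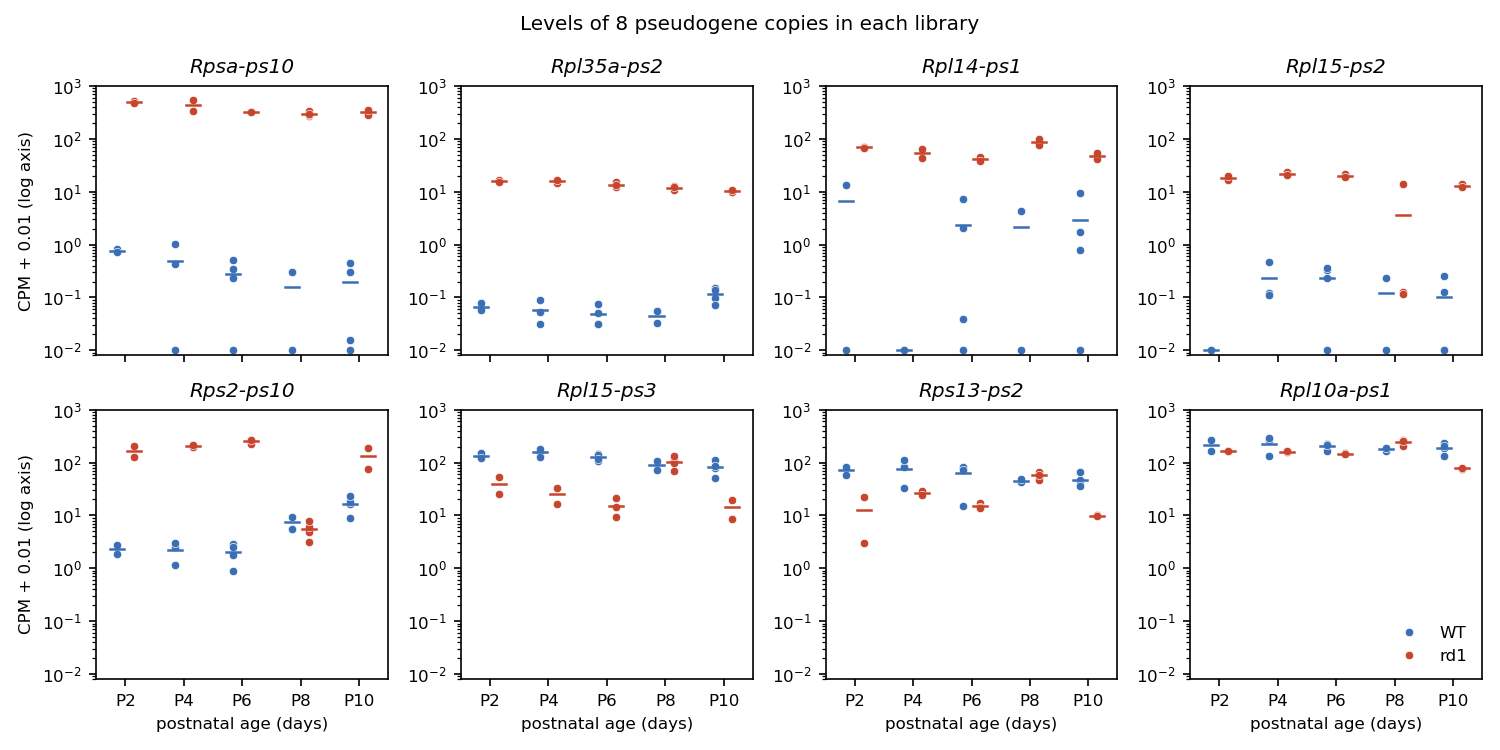
Level of 8 copies in each of the 28 libraries by age, in CPM plus 0.01 on a log axis, with WT in blue, rd1 in red and bars at the mean of each group. Rpsa-ps10, Rpl35a-ps2 and Rpl14-ps1 were higher in every rd1 library than in any WT library, while Rps2-ps10, Rpl15-ps3, Rps13-ps2 and Rpl10a-ps1 had P8 rd1 libraries within the WT range.

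Rps2-ps10 was high in rd1 except at P8. Its parent Rps2 encodes a small-subunit protein. The 9 rd1 libraries outside P8 had a lowest, median and highest level of 74.3, 208 and 267 CPM, and the 15 WT libraries 0.876, 2.85 and 22.9 CPM. The 4 P8 rd1 libraries had 4.86, 3.19, 6.09 and 7.71 CPM, and the P8 WT libraries 9.15 and 5.61 CPM. So the genotypes were apart in 9 of 13 rd1 libraries and overlapped at P8.

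The log2 fold change of Rps2-ps10 was 4.45 ± 0.22 averaged over the ages (adjusted p = 9.74e-13), 6.98 ± 0.46 at P6 (adjusted p = 6.25e-10) and -0.51 ± 0.45 at P8 (adjusted p = 0.586). The P8 effect less the average effect of the remaining ages was -6.20 ± 0.51 (adjusted p = 5.26e-07), and the interaction of genotype and age passed at an adjusted p of 2.14e-06. The WT mean of Rps2 was 247 ± 75.9 CPM and its rd1 mean 242 ± 53.1 CPM (0.02 ± 0.12, adjusted p = 0.936). Rps2-ps10 had 6 mismatches to Rps2 and 167 words that Rps2 lacks.

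Rps2-ps10 is the only member with more than 1 transcript. The 965-base transcript had 2172 to 4546 estimated counts in the rd1 libraries of P2, P4 and P6, 918 and 3014 in those of P10, 0 to 87.0 in those of P8 and 10.8 to 236 in WT. The 879-base transcript had 287 and 821 estimated counts in the P10 rd1 libraries and at most 133 in any WT library. The host gene Pde6a stood in WT at medians of 10.8 CPM at P2, 12.3 at P4, 78.3 at P6, 681 at P8 and 1230 at P10. In rd1 its medians were 8.98, 26.1, 108, 288 and 943 CPM in the same order. In WT the copy and Pde6a were both higher at P8 and P10 than at P2. In rd1 the copy was high at P2, where Pde6a was low. At P8 in rd1 the copy was low, and Pde6a stood above its P2, P4 and P6 medians. The part of Pde6a in the copy's level was not tested.

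Rpl15-ps2 had a like split within P8. It stood between 0 and 0.463 CPM in WT and between 12.0 and 23.2 CPM in the 9 rd1 libraries of the other ages. At P8 rd1 replicate 1 had 13.9 CPM, and replicates 2, 3 and 4 had 0.107, 0.117 and 0.104 CPM, in the WT range. The P8 WT libraries had 0.220 and 0 CPM. Tcf12, the gene around it, was at medians of 268 CPM in WT, 281 CPM in rd1 outside P8 and 326 CPM in P8 rd1.

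Of the 16 copies, 3 were lower in rd1, and all 3 had every word in the parent. Rpl15-ps3 (ENSMUSG00000061167, chr9:22185607-22186221, minus strand, between genes) stood at 50.9, 115 and 183 CPM (lowest, median, highest) in WT and at 8.55, 19.8 and 52.9 CPM in rd1 outside P8. The P8 rd1 libraries had 68.2, 110, 96.3 and 134 CPM, and the P8 WT libraries 73.6 and 109 CPM. Only the highest rd1 library outside P8 (P2 replicate 1) reached the lowest WT library. The log2 fold change was -1.98 ± 0.18 averaged over the ages (adjusted p = 2.63e-08) and 0.11 ± 0.36 at P8 (adjusted p = 0.902), and its interaction with age passed (adjusted p = 0.0212). Rpl15 moved in the same direction by less (-0.50 ± 0.09, adjusted p = 0.000203).

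Rps13-ps2 (ENSMUSG00000069972, chr7:88530446-88530898, minus strand, between genes) is a copy of Rps13, a small-subunit protein. It stood at 15.3, 58.1 and 112 CPM in WT and at 2.93, 14.5 and 28.7 CPM in rd1 outside P8. The P8 rd1 libraries had 67.5, 56.6, 47.6 and 58.8 CPM, and the P8 WT libraries 42.9 and 48.3 CPM. P6 WT replicate 1 gave the 15.3 CPM, within the rd1 range, while the other P6 WT libraries had 72.0 to 82.5 CPM. The copy's log2 fold change was -1.56 ± 0.26 (adjusted p = 0.000140), whereas Rps13 changed by 0.70 ± 0.12 (adjusted p = 0.000259), with a mean of 77.3 ± 37.5 CPM in WT (SD, n = 15) and 136 ± 27.8 CPM in rd1 outside P8 (n = 9). The P8 rd1 libraries had 69.5, 64.7, 64.0 and 64.0 CPM of Rps13, within the WT range, against 38.6 and 55.1 CPM in P8 WT, and at P8 Rps13 did not pass (0.43 ± 0.28, adjusted p = 0.438).

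Rpl10a-ps1 also went against its parent. It stood at 131, 205 and 289 CPM in WT and at 76.3, 151 and 168 CPM in rd1 outside P8, and the P8 rd1 libraries had 268, 252, 207 and 260 CPM. Rpl10a stood at 190, 306 and 484 CPM in WT, at 543, 630 and 728 CPM in rd1 outside P8 and at 304 to 376 CPM in P8 rd1. The copy overlapped between the genotypes, and Rpl10a outside P8 did not. The log2 fold changes were -0.42 ± 0.11 for the copy (adjusted p = 0.00917) and 0.79 ± 0.12 for Rpl10a (adjusted p = 6.75e-05). The P8 effect less that of the remaining ages was 1.03 ± 0.28 for the copy (adjusted p = 0.0238) and -1.09 ± 0.30 for Rpl10a (adjusted p = 0.0260).

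**Figure D2:**
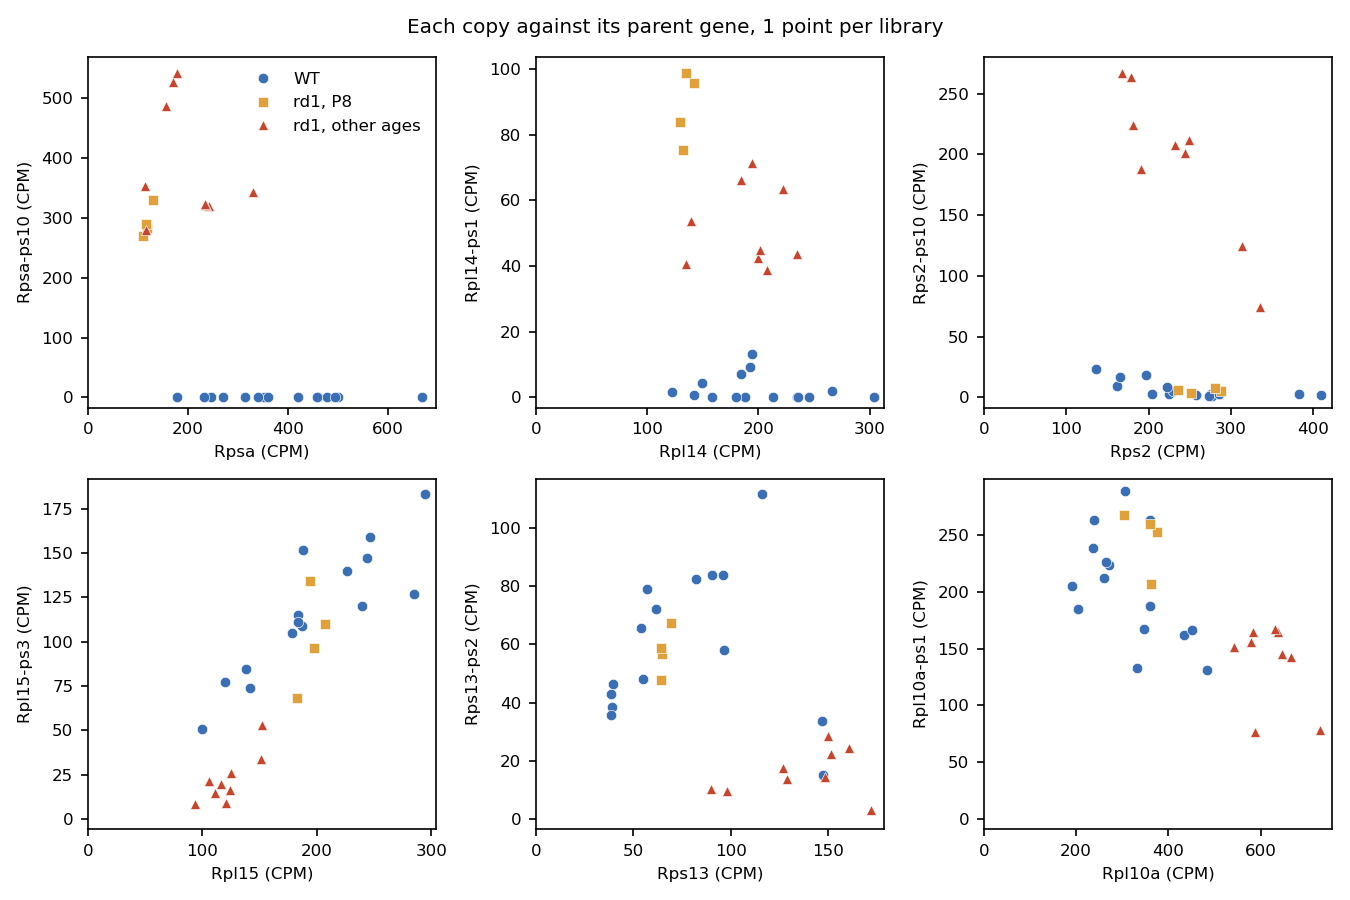
CPM of 6 copies against CPM of their parents, with 1 point per library, WT as circles, P8 rd1 as squares and the other rd1 libraries as triangles. Rpsa-ps10 and Rpl14-ps1 kept P8 rd1 with the other rd1 libraries, while for Rps2-ps10, Rpl15-ps3, Rps13-ps2 and Rpl10a-ps1 the P8 rd1 squares lay among the WT circles.

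Among the 16 copies past the rule in both genotypes, 9 were higher and 3 lower in rd1 averaged over the ages, and 4 did not pass, with a median log2 fold change of 0.31. Of all 18608 genes tested, 23.5% passed in this comparison. After Rpl14-ps1 and Rps2-ps10 the higher copies were small in effect. Rps27a-ps2, a copy of the gene for a ubiquitin and ribosomal protein fusion, had 0, 1.72 and 3.00 CPM in WT and 1.69, 2.42 and 3.33 CPM in rd1, with overlap and a log2 fold change of 1.04 ± 0.36 (adjusted p = 0.0403). It lost the call in 15 of 27 fits that each left out 1 library, and without P4 WT replicate 1 its log2 fold change was 2.31.

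The other 6 higher copies were Rpl31-ps8 (0.49 ± 0.09), Rps23-ps1 (0.37), Rpl27-ps3 (0.36), Rps16-ps2 (0.35), Rpl28-ps1 (0.28) and Rps12-ps3 (0.27), all with overlap between the genotypes and edgeR adjusted p from 0.000463 to 0.0277. Rps23-ps1, for example, stood at 64.3, 116 and 230 CPM in WT and 99.1, 163 and 217 CPM in rd1. Rpl28-ps1 lost its call in 6 of 27 fits without 1 library (the highest adjusted p, 0.0767, without P8 WT replicate 1) and Rps12-ps3 in 3 (0.0627, without the same library). With replicate number added to the edgeR fit as a block, none of the 6 passed (adjusted p from 0.0705 to 0.313). Rps27a-ps2 did not pass in that fit either (adjusted p = 0.208). The copies that did not pass were Rpl36a-ps2 (0.45 ± 0.17, adjusted p = 0.0596), Rpl10-ps3 (0.25 ± 0.10, adjusted p = 0.0825), Rps19-ps3 (0.20 ± 0.17) and Rps6-ps4 (0.08 ± 0.13).

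At single ages, 3 of the 16 copies passed at P2 (1 higher, 2 lower; 2.81% of all genes passed), 3 at P4 (2 higher, 1 lower; 2.95%), 2 at P6 (1 higher, 1 lower; 2.63%) and 8 at P10 (5 higher, 3 lower; 12.6%). The P2 count was 1 without P2 WT replicate 1. The P10 count was 3 without P10 rd1 replicate 1 or 2 and 5 without P10 WT replicate 3 or 4. At P8 none passed, where 3.70% of all genes did. In edgeR 4 of the 16 had an unadjusted p under 0.05 at P8 and 15 had a positive log2 fold change, and DESeq2 also called 0. Rpl14-ps1 passed at P8 with no filter on low counts (adjusted p = 0.000538), with P6 rd1 replicates 1 and 3 kept apart (adjusted p = 0.0479), and in 6 of 27 fits that left out 1 library (adjusted p from 0.0320 to 0.0476). Those libraries were P2 WT replicates 1 and 2, P6 WT replicates 3 and 4 and P10 WT replicates 2 and 5. Without P8 WT replicate 2 the copy that passed at P8 was Rps12-ps3 (adjusted p = 0.0169). Averaged without P8, 8 were higher and 3 lower (30.2% of all genes passed).

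The difference between ages was tested directly. The interaction of genotype and age passed for 2 of the 16 copies, Rps2-ps10 and Rpl15-ps3 (1.02% of all genes passed). The P8 effect less the average of the remaining ages passed for 4 (9.61% of all genes): it was positive for Rpl15-ps3 (2.62 ± 0.44, adjusted p = 0.00330), Rps13-ps2 (2.29 ± 0.65, adjusted p = 0.0310) and Rpl10a-ps1, and negative for Rps2-ps10. Of the 20 parents, 3 passed the P8 difference: Rpl15 (0.87 ± 0.21), Rpl35a (0.77 ± 0.18) and Rpl10a. Without P8 WT replicate 1 or 2 the interaction passed for 1 copy, Rps2-ps10.

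**Figure D3:**
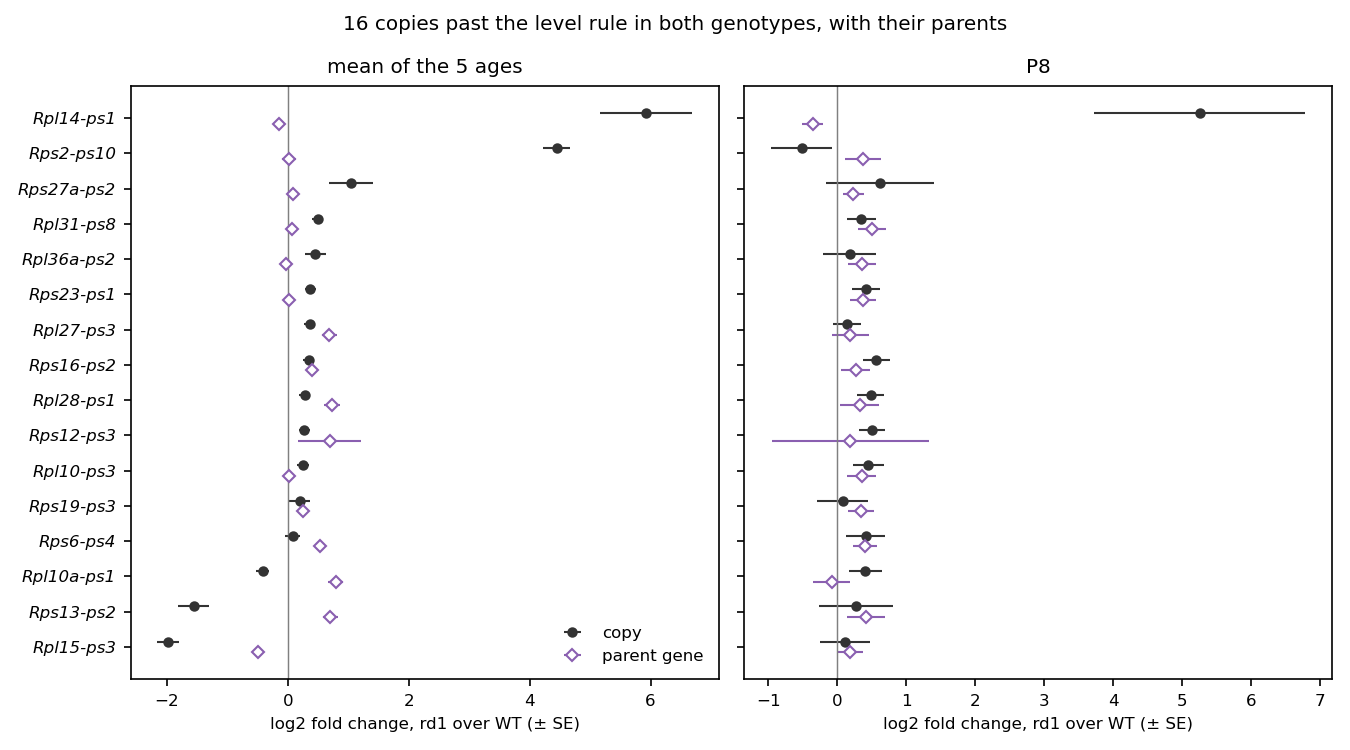
Log2 fold change of rd1 over WT with its SE for the 16 copies past the rule in both genotypes (filled) and their parents (open), averaged over the 5 ages on the left and at P8 on the right. Averaged over the ages the copies ran from -1.98 (Rpl15-ps3) to 5.92 (Rpl14-ps1) and these parents from -0.50 (Rpl15) to 0.79 (Rpl10a), and at P8 no copy passed the test.

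The 20 parents were mixed in direction. Averaged over the ages 8 were higher and 4 lower in rd1, with a median of 0.07, where 23.5% of all genes passed with a median of -0.01. The lower parents were Rpl21 (-2.34 ± 0.07), Rpl35a, Rpsa and Rpl15, and all except Rpl15 were also lower at P8, where no parent was higher and 3.70% of all genes passed. Each of these lower parents has a copy that met the level rule in a single genotype, as has Rpl38 among the higher parents. Their calls may therefore not be independent of the rule. WT libraries had 198 to 354 CPM of Rpl21, and rd1 libraries 42.0 to 56.1 CPM. The higher parents included Rpl10a, Rpl28 (0.73 ± 0.13), Rps13, Rpl27 (0.68 ± 0.12) and Rps6 (0.52 ± 0.08).

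The ratio of copy to parent was taken within each library, so the library's scaling factor cancels where both have counts. It was tested with limma over the 75 copy and parent pairs of all gene families, on log2 of counts plus 0.5. Of these 75 pairs 35 were ribosomal, among them every member, also those past the rule in a single genotype. The share of the 75 that passed between genotypes is thus partly set by the members and by the level rule. Where a copy is at 0 or under 0.5 counts, the ratio is set largely by that 0.5 and by the parent's counts, and so moves with depth. Rpl14-ps1 was at 0 in 5 WT libraries and Rps27a-ps2 in 2. Rpl14-ps1 was also under 0.5 counts in P4 WT replicate 2 and P6 WT replicates 2 and 3, at 0.0292 CPM or less. The ratio changes of both copies depend on the 0.5 added. Of the 16 ribosomal pairs, 6 had a higher and 6 a lower ratio in rd1 averaged over the ages, where 50.7% of the 75 pairs passed. The largest changes on the log2 scale were those of Rpl14-ps1 (7.61 ± 1.09, adjusted p = 6.43e-06), Rps2-ps10 (4.44 ± 0.31, adjusted p = 9.51e-11), Rps13-ps2 (-2.34 ± 0.39, adjusted p = 4.46e-05) and Rpl15-ps3 (-1.55 ± 0.15, adjusted p = 2.32e-08). Rps27a-ps2 (1.46), Rpl36a-ps2 (0.51), Rpl31-ps8 (0.43) and Rps23-ps1 (0.36) also rose against the parent. Rpl10a-ps1 (-1.21), Rpl28-ps1 (-0.48), Rps6-ps4 (-0.43) and Rpl27-ps3 (-0.31) fell against it. Rps16-ps2 (-0.04 ± 0.08), Rps19-ps3, Rpl10-ps3 and Rps12-ps3 did not pass. At P8 alone only Rpl14-ps1 passed among the 16 (8.02 ± 2.34, adjusted p = 0.0174), where 20.0% of pairs did.

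Reads of a parent can be spread over all its copies, so each parent was also summed with every gene that had at least 50% of a transcript's words in the parent or the copy. These 20 sums, called families here, are less open to how reads are shared among their genes. The families of Rpsa, Rpl35a, Rpl15, Rpl21 and Rpl38 hold copies that met the level rule in a single genotype, so these 5 are described with no test between the genotypes. Of the other 15 families, 11 were higher and none lower in rd1 averaged over the ages, with a median of 0.26 and a range of 0.07 (Rpl36a) to 0.66 (Rps2), and 23.5% of the 18567 genes and families tested passed. With P8 left out of the average, 8 of the 15 were higher, where 30.2% of the 18608 genes tested singly passed. The Rps13 family did not pass (0.15 ± 0.07, adjusted p = 0.133), although Rps13 was higher and Rps13-ps2 lower. The Rpl10a family was higher (0.47 ± 0.07, adjusted p = 3.57e-05), as was Rpl10a, although Rpl10a-ps1 was lower.

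Among the families described without a test, that of Rpsa had a mean of 385 ± 129 CPM in WT (SD, n = 15) and 533 ± 123 CPM in rd1 (n = 13), of which Rpsa-ps10 held 0.335 and 359 CPM. The mean of the Rpl35a family was 157 ± 43.3 CPM in WT and 124 ± 17.9 CPM in rd1, and that of the Rpl21 family 295 ± 57.3 and 279 ± 25.7 CPM. The Rpl15 family had a mean of 316 ± 93.4 CPM in WT and 233 ± 58.5 CPM in rd1. For the Rpl38 family the means were 76.3 ± 22.4 and 94.9 ± 16.2 CPM. By mean, the families of Rpl35a, Rpl21 and Rpl15 were thus lower in rd1, and those of Rpsa and Rpl38 higher. The summed levels of the 2 genotypes overlapped in each of these 5 families.

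The make-up of some of these families differed by genotype. In the Rpl21 family, Rpl21 had a mean of 255 CPM and Gm10163 of 35.6 CPM in WT, and in rd1 they had 49.7 and 187 CPM, while Gm10240 and Gm13370 had 0.436 CPM each in WT and 20.4 CPM each in rd1. In the Rpl15 family, the mean of Gm10020 was 0.585 CPM in WT and 26.9 CPM in rd1. Gm10163, Gm10240, Gm13370 and Gm10020 are predicted genes outside the naming rule and were singled out after their values were seen. At P8 no family passed in edgeR (3.52% of genes and families did), 7 of the 15 tested had an unadjusted p under 0.05, and all 15 had a positive log2 fold change. No other tool was run on the families.

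**Figure D4:**
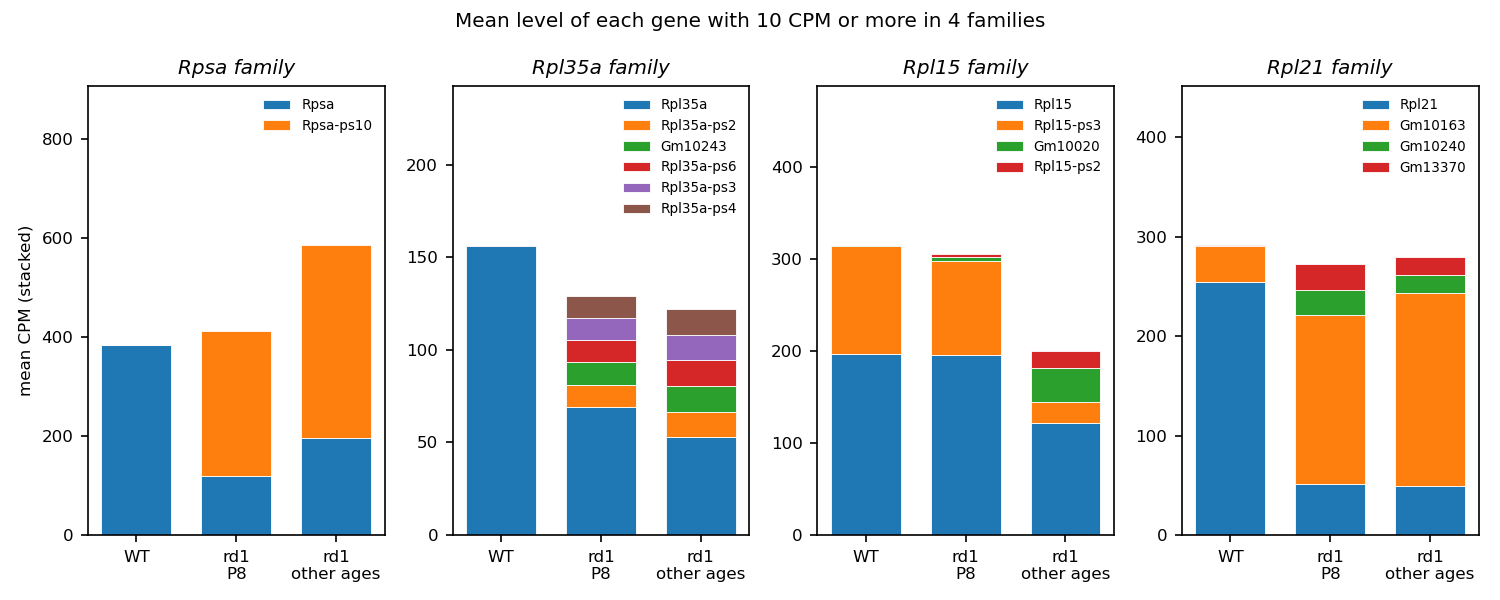
Stacked mean CPM of the genes with 10 CPM or more in 4 families, for WT (n = 15), P8 rd1 (n = 4) and the other rd1 libraries (n = 9). Copies and predicted genes made up most of the Rpsa and Rpl21 families in both rd1 classes, and the Rpl15 family in P8 rd1 resembled WT, with Rpl15 at 195 CPM and Rpl15-ps3 at 102 CPM.

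With age several copies fell in WT rods. From P2 to P10 in WT, 6 of the 16 copies fell and 1 rose (33.3% of all genes passed), with a median log2 fold change of -0.65. Rpl10-ps3 fell from 239 and 211 CPM at P2 to 147, 92.2, 95.2 and 56.0 CPM at P10 (-1.11 ± 0.21, adjusted p = 0.000336). Rps23-ps1 (-0.92 ± 0.20), Rpl31-ps8 (-0.84 ± 0.20), Rps16-ps2 (-0.83 ± 0.19), Rpl28-ps1 (-0.76 ± 0.19) and Rps12-ps3 (-0.66 ± 0.18) fell too. The P10 values of Rpl10-ps3 were all under those of P2. In the same comparison 12 of 20 parents fell and none rose, and 14 of 20 families fell (33.4% of genes and families passed).

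Rps2-ps10 was the exception in WT. It stood at 1.83 and 2.73 CPM at P2, 1.15, 2.47 and 3.05 CPM at P4, 0.876 to 2.85 CPM at P6, 9.15 and 5.61 CPM at P8 and 8.93, 16.6, 18.3 and 22.9 CPM at P10. Every P10 library lay above every library of P2, P4 and P6. The log2 fold change from P2 to P10 was 3.01 ± 0.53 (adjusted p = 0.000127), and its ratio to Rps2 rose by 3.39 ± 0.67 (limma, adjusted p = 0.00171). The ratio also rose for Rps19-ps3 (1.70 ± 0.43, adjusted p = 0.00862), a low copy whose parent Rps19 fell (-0.98 ± 0.18), and 16.0% of the 75 pairs passed. Of these 2 pairs 1 passed without P2 WT replicate 2. In rd1 from P2 to P10, 6 of the 16 copies fell and none rose (30.0% of all genes passed), and Rps2-ps10 did not pass (-0.22 ± 0.45, adjusted p = 0.759). The rd1 count rests on 2 libraries at each end: it was 1 and 3 without P2 rd1 replicate 1 and 2, and 0 and 2 without P10 rd1 replicate 1 and 2. In bulk samples such as these, fewer cells of a type and less RNA per cell cannot be told apart.

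**Figure D5:**
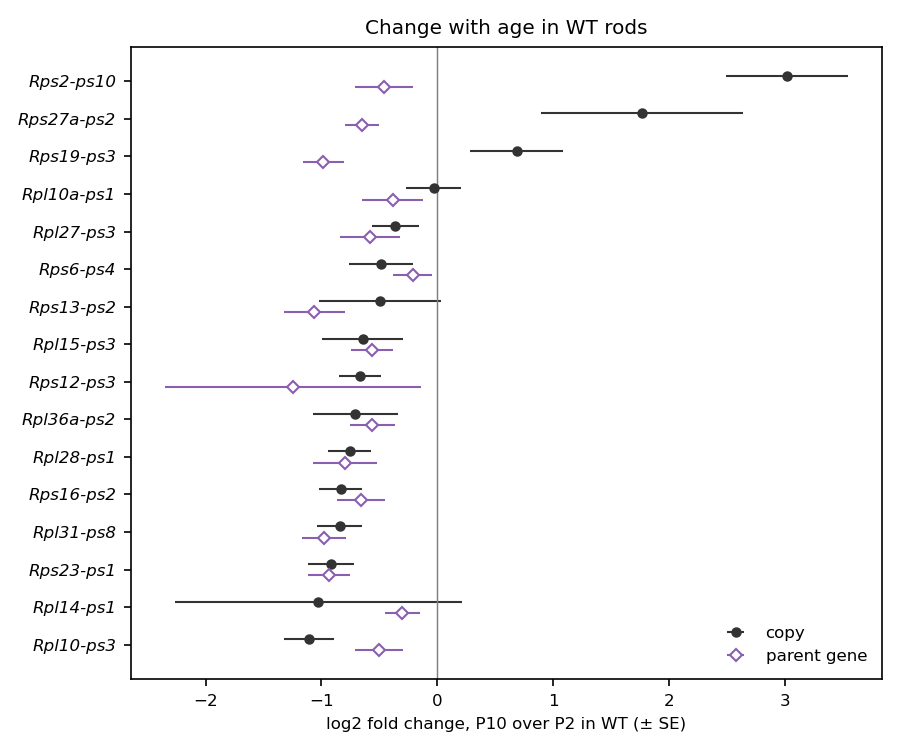
Log2 fold change from P2 to P10 in WT with its SE for the 16 copies (filled) and their parents (open). Rps2-ps10 rose by 3.01, 6 copies fell by 0.66 to 1.11, and 12 of the 20 parents of all members fell.

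Both copies past the threshold in WT alone rested on a few libraries. Rpl21-ps15 stood at 22.9 CPM in P6 WT replicate 1 and 3.82 CPM in P4 WT replicate 1, and under 1 CPM in the other 13 WT libraries and in all rd1 libraries, so 280.6 of its 330.5 WT counts came from 1 library. That library, P6 WT replicate 1, also had the highest chi-square values against the others of its group. Rpl38-ps2, identical to Rpl38 in every word, stood at 7.01 CPM in P2 WT replicate 1, 4.80 and 1.83 CPM in P4 WT replicates 2 and 1 and 3.81 CPM in P10 WT replicate 5. It was at 0 in 8 of 15 WT libraries and in the 9 rd1 libraries outside P8, and reached 1.57 CPM in P8 rd1.

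The copies were read beside the genes that make and use ribosomes. Of 79 cytosolic ribosomal protein genes, 46 were higher and 5 lower in rd1 averaged over the ages (median 0.25), where 23.5% of all genes passed, and their summed level ran from 8626 to 24674 CPM in WT and 13212 to 21464 CPM in rd1. The 4 with the smallest p were all lower: Rpl21, Rpl26 (-2.16 ± 0.07), Rpl35a and Rpsa. At P8 none was higher and 4 were lower (3.70% of all genes passed). From P2 to P10 in WT 49 fell and none rose (33.3% of all genes passed). Of 45 ribosome biogenesis genes, 16 were higher and none lower averaged over the ages, such as Eif6 (0.49 ± 0.07), which keeps the subunits apart, and Nle1 (0.48 ± 0.09). At P8 no ribosome biogenesis gene passed. Of 33 translation factors tested, 9 were higher and 2 lower, among them Eif3j1 (-0.82 ± 0.10) and Eif3e (-0.38 ± 0.07), both of the initiation complex eIF3, and 1 was lower at P8. The shares of these latter lists that passed lie closer to that of all genes than the share of the ribosomal protein genes does.

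Immediate early genes, which cell dissociation can raise, moved with the genotype: 12 of 15 were higher in rd1 averaged over the ages and none lower, where 23.5% of all genes passed in either direction, with a summed level of 498 to 2287 CPM in WT and 709 to 3576 CPM in rd1, and 1 was higher and 1 lower at P8 (3.70% of all genes). The markers of other cells are to be read against the same 23.5%. Of them, 4 of 9 for Müller glia and 4 of 11 for progenitors were higher, 4 of 8 for vessels and 2 of 10 for amacrine and horizontal cells lower, and 1 of 9 higher and 1 lower for bipolar cells. Of the rest, 2 of 9 cone markers were higher and 2 lower, 1 of 9 microglia markers was higher, and 1 of 7 for ganglion cells and 1 of 5 for erythrocytes were lower. Of 12 rod markers 2 were higher. At P8, where 3.70% of all genes passed, 1 cone marker was higher and 1 rod marker lower. None passed there for Müller glia, vessels, amacrine and horizontal, bipolar or ganglion cells, microglia or erythrocytes. The summed level of Müller glia markers ran from 272 to 1196 CPM in WT and 433 to 1103 CPM in rd1, that of progenitor markers from 16.0 to 1007 CPM and 43.1 to 1533 CPM. The part of these genes in the copies' levels was not tested.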

How the data were processed

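RNA-seq was measured in 28 libraries of sorted rods (15 WT, 13 rd1). Per the submitters' processing notes, the authors used kallisto 0.42.4, edgeR 3.32.1 and GRCm38.p5, and per the labels' protocols, stranded mRNA libraries were read as pairs of 125 bases. The deposited gene and transcript tables hold estimated counts, and the third deposited table holds the authors' CPM per gene. Each of these 3 files had 1 column that belonged to no sample and was not used.

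Levels are the deposited CPM. Estimated counts were rounded and tested with edgeR 4.0.16 (R 4.3.3) by the quasi-likelihood test, with TMM scaling, edgeR's default filter on low counts and a mean for each of the 10 groups. The fit used 27 samples, with P6 rd1 replicates 1 and 3 averaged, 17 residual degrees of freedom and 18608 genes, and p-values were Benjamini-Hochberg adjusted over all of them, with a threshold of 0.05. Copy-to-parent ratios were tested with limma 3.58.1 on log2 of unrounded counts plus 0.5. Families were summed before a refit of all genes, and the 15 with no copy past the rule in a single genotype were tested between the genotypes. Sequences came from the GENCODE M21 transcripts, which held 98.5% of the deposited transcripts. Library totals of 11.1 to 21.4 M (mega) counts set the precision, and a count of 0 allows up to 3 counts.

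Alternatives were RLE scaling, no filter on low counts, DESeq2 1.42.0, all 28 libraries apart, a replicate block, a member threshold of 5 CPM, leaving out each sample in turn and, added after seeing the data, averages without P8. The named copies were the 6 most abundant, the 6 largest changes in each direction, the smallest interaction p-values, the largest changes with age and ratio, those near the threshold and those past it in a single genotype. Members and gene lists were chosen with earlier results of these data known.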

Additional observations from a re-analysis of the deposited data

Results flagged for a closer look

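Rpl15-ps2 in P8 rd1 replicate 1 stood at 13.9 CPM, far from the other P8 rd1 libraries at 0.104 to 0.117 CPM. Rpl21-ps15 in P6 WT replicate 1 stood at 22.9 CPM, where the other P6 WT libraries were near 0. Rps13-ps2 in the same library was low at 15.3 CPM, against 72.0 to 82.5 CPM in the other P6 WT libraries. P6 WT replicate 1 differed from its group across many transcripts, with the highest chi-square values of all pairs of replicates. Rps23-ps1 in P10 WT replicate 2 stood at 105 CPM, against 65.1 to 69.6 CPM in the other P10 WT libraries. Each gap passed Dixon's 95% critical value for 4 samples. Of 57 groups of 4 tested, 4 passed, and chance gives about 1 in 20.

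The effect of genotype differed between ages by edgeR's interaction test for Rps2-ps10 (adjusted p = 2.14e-06) and Rpl15-ps3 (adjusted p = 0.0212). The log2 effect at P8 less the average over the remaining ages was -6.20 for Rps2-ps10, 2.62 for Rpl15-ps3, 2.29 for Rps13-ps2 and 1.03 for Rpl10a-ps1. Among the parents it was -1.09 for Rpl10a, 0.87 for Rpl15 and 0.77 for Rpl35a. In the ages other than P8 the rd1 libraries were also the deeper ones, and the part of depth in these differences was not tested.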

How the results depend on the processing

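Of 76 counts of calls recomputed under another setting with no library left out, 61 stayed within 1.5 times. With no filter on low counts, 4 copies passed at P6, 1 at P8 and 4 in the interaction. With all 28 libraries apart, 4 passed at P6 and 1 at P8. Replicate numbers did not pair the samples (correlation of deviations from -0.24 to 0.14 over 9 pairs), and with the replicate block 5 copies passed averaged over the ages, 2 at P10, 1 in the interaction, 4 from P2 to P10 in WT and 1 in rd1, and 0 ratios from P2 to P10. With a member threshold of 5 CPM that ratio count was 1. At P8 alone 1 ratio passed. In the refits, with another setting or without 1 sample, the share of all genes that passed was not counted. Whether calls also changed across all genes is therefore not known for them. The cause of these changes was not tested.

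Leaving out 1 sample at a time, the number of copies that passed ran from 9 to 13 averaged over the ages, 1 to 3 at P2, 3 to 4 at P4, 2 to 3 at P6, 0 to 1 at P8, 3 to 12 at P10, 1 to 3 in the interaction, 6 to 8 with age in WT and 0 to 6 with age in rd1. Ratios ran from 10 to 12 averaged over the ages and 1 to 3 with age, cytosolic ribosomal protein genes from 41 to 56 and the 15 families tested from 8 to 13. Over 1152 refits of 36 copies and parents, 52 lost a call, 8 gained one and 17 changed sign, of which 0 belonged to a called gene. The sign changed under the replicate block for Rps6-ps4 (-0.11), Rpl31 (-0.0063) and Rps23 (-0.038). It changed without 1 sample for Rpl10 (-0.042 to 0.094), Rpl36a (-0.075 to 0.029), Rps2 (-0.075 to 0.10) and Rps23 (-0.016 to 0.064).

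Where every compared word of a copy occurs in the parent, its level depends on how shared reads are divided. The part of depth (11.1 to 21.4 M counts) in those levels was not tested. Counting without the shared reads was not run here.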
